A study of Mus musculus with 9 samples.

Results

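The genes described here are 9 members of the membrane serine protease system of epithelial surfaces: the protease genes St14, Prss8, Prss22, Tmprss2, Tmprss4, Tmprss13 and Hpn, and the inhibitor genes Spint1 and Spint2. They were taken by mouse symbol from the 47069 Ensembl genes of the count files, and all 9 were among the 18204 genes with enough counts to be tested. RNA was sequenced from 3 primary prostate tumours, 3 proximal metastases of the epididymal fat and 3 distal metastases of C57BL/6 mice aged about 9 to 10 months. Every group, the primary tumours included, carried among its engineered changes the allele written as Ctnnb1pc(ex3)delta/+, in which loss of exon 3 of 1 Ctnnb1 copy stabilises beta-catenin. The promoter that drives the recombinase is not given in the sources used here. For the distal group the labels disagree on the organ (diaphragm in one field, lung in another), so it is called distal throughout. The samples are said to be matched within 3 mice, but which belong together is not given, so all comparisons are unpaired and treat the libraries as independent.

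Most of these proteases are held at the cell surface, by a membrane-spanning segment or a lipid anchor, and all are made as inactive precursors. The product of Prss22 is known as a secreted protease. Matriptase, encoded by St14, and prostasin, encoded by Prss8, activate one another at the surface of many epithelia and are needed for barrier function. Their main inhibitors, HAI-1 (Spint1) and HAI-2 (Spint2), are membrane proteins with Kunitz domains, and the balance of protease and inhibitor limits the activation of growth factors and of the receptor PAR2. TMPRSS2 and hepsin (Hpn) are best known in the prostate, where TMPRSS2 is an androgen-regulated gene and hepsin is raised in human prostate cancer.

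Libraries held 28334730 to 40408723 counts, and levels below are CPM, each count taken per TMM-scaled library total. Primary 1 stood apart from the other primary tumours and near the metastases. The simple epithelium markers (8 of 8 tested, Krt8, Krt18 and Cdh1 among them) summed to 2963 CPM in primary 1, 17633 in primary 2 and 5772 in primary 3, against 1960 to 2943 in the metastases. The prostate luminal markers (6 of 8 tested) summed to 139, 686 and 677 CPM in primary 1, 2 and 3 and to 40.8 to 52.1 CPM in the metastases, and Pbsn, the probasin gene of prostate secretory cells, stood at 0.483 CPM in primary 1. Seminal vesicle markers summed to 10566 CPM in primary 3 and to at most 27.2 CPM elsewhere. Skeletal muscle markers summed to 653 and 879 CPM in distal 2 and distal 3 and to at most 4.60 CPM elsewhere, while lung epithelium markers summed to 1.43 to 1.73 CPM in the distal libraries, with Sftpa1 at 0 counts. Because the tissue is bulk, fewer cells of a type and less RNA per cell cannot be told apart in any value below.

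Metastases of both sites were compared with primary tumours to ask whether the surface protease system differs between a tumour in the prostate and its spread. In edgeR, Prss8, Tmprss4 and Spint2 were called lower in the metastases. Prss22, Tmprss13 and Spint1 pointed the same way without passing the test, and St14, Tmprss2 and Hpn had log2 fold changes between -0.56 and -0.33 that did not pass it. This split moved with the method: DESeq2 also called Prss22, Tmprss13 and Spint1, and limma-voom called no member. Of the 9 members, 3 were called lower and none higher (edgeR's quasi-likelihood test, adjusted p below 0.05 over all genes). By the same rule 3.68% of all tested genes were called lower. All 9 members had a negative log2 fold change with a median of -1.74, where all tested genes had a median of -0.04 and 52.6% were negative.

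**Figure D1:**
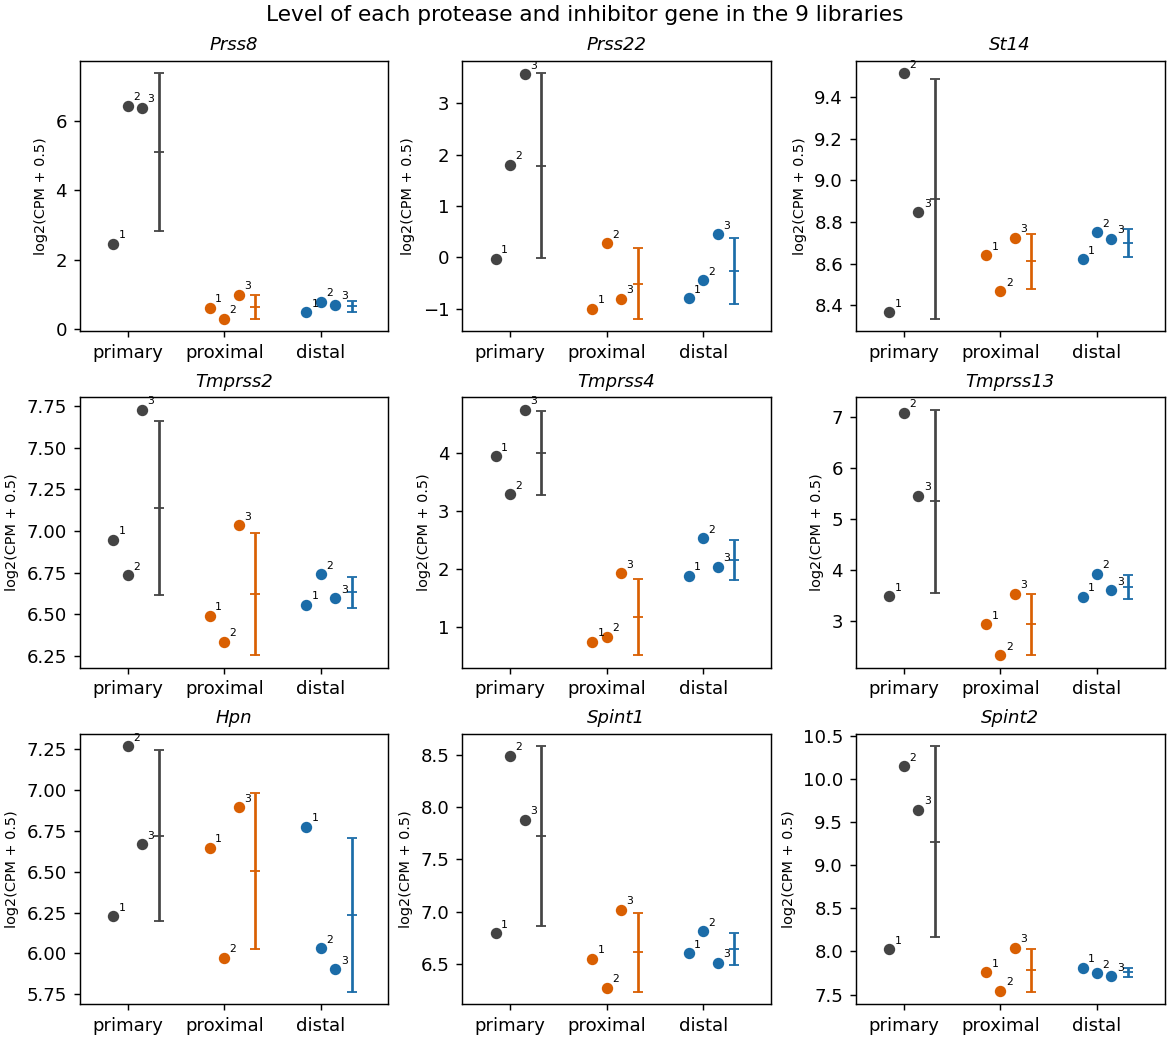
Each panel shows 1 gene; the vertical axis is log2(CPM + 0.5), with its own range in each panel, and the points are the 3 libraries of each group, numbered by library. The bar beside each group is the mean with the SD on this log scale; primary 1 lies near the metastases for most genes, while Prss8 and Tmprss4 are the genes in which all 3 primary tumours lie above all 6 metastases.

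Prss8, the gene of the lipid-anchored protease prostasin, differed most. It held 5.02, 85.8 and 82.2 CPM in primary 1, 2 and 3. In the metastases it held 1.04, 0.740 and 1.49 CPM in proximal 1, 2 and 3, and 0.900, 1.24 and 1.13 CPM in distal 1, 2 and 3. The highest metastasis thus lay below the lowest primary tumour, although primary 1 was much closer to the metastases than to the other primary tumours. Prss8 fell by 5.72 on the log2 scale (SE 0.73, edgeR adjusted p = 0.0135), which is a primary level 52.6 times the metastatic one. In limma-voom the log2 fold change was smaller, at -4.79, and Prss8 was not called (limma-voom adjusted p = 0.171, and 0.0746 with quality weights). It is encoded on the minus strand of chromosome 7 (127925716 to 127930104 on GRCm38, ENSMUSG00000030800), where 122 exonic bases overlap Kat8 on the other strand. The strand setting of the counting is not given, so reads of that stretch cannot be told apart. Their part in the low metastatic levels of Prss8 was not tested.

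St14, the gene of matriptase, which activates prostasin and is activated by it, gave no call. It held 330, 731 and 460 CPM in primary 1, 2 and 3, 398, 353 and 422 CPM in proximal 1, 2 and 3, and 393, 430 and 421 CPM in distal 1, 2 and 3. All 6 metastases lay between primary 1 and primary 3, so the groups overlapped. The log2 fold change was -0.33 (SE 0.23, edgeR adjusted p = 0.355), and without primary 2 it was 0.03. St14 lies on chromosome 9 (31089402 to 31131853, ENSMUSG00000031995).

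Tmprss4, a transmembrane protease with raised levels in several human carcinomas, fell with no overlap between the groups. It held 14.96, 9.29 and 26.4 CPM in primary 1, 2 and 3. The proximal libraries held 1.18, 1.28 and 3.30 CPM and the distal ones 3.18, 5.29 and 3.60 CPM. Here primary 1 lay with the other primary tumours, and no metastasis reached any of them. Tmprss4 fell by 2.60 on the log2 scale (SE 0.43, edgeR adjusted p = 0.0257). The gene (chromosome 9, 45172726 to 45204092, ENSMUSG00000032091) shares 412 exonic bases with Gm17099 on the other strand and the strand setting of the counting is not given, so reads of the pair cannot be told apart.

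Tmprss13, a transmembrane protease of skin and other stratified epithelia, differed widely among the primary tumours. Primary 1, 2 and 3 held 10.7, 135 and 43.3 CPM. The proximal libraries held 7.13, 4.52 and 11.1 CPM and the distal ones 10.6, 14.7 and 11.7 CPM. Primary 1 therefore fell within the range of the metastases, and only primary 2 and primary 3 stood above it. The log2 fold change of -2.70 (SE 0.63) missed the threshold (edgeR adjusted p = 0.0572), and it was -1.49 without primary 2 and -1.97 in limma-voom with quality weights. Tmprss13 lies on the plus strand of chromosome 9 (45319100 to 45347581, ENSMUSG00000037129), with 56 exonic bases shared with 1700003G13Rik on the other strand. Reads of that stretch cannot be told apart either.

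Prss22, a serine protease of airway and other epithelia also known as tryptase epsilon, was the least abundant member in every group. Its counts were 18, 77 and 336 in primary 1, 2 and 3. Proximal 1, 2 and 3 had 0, 28 and 3 counts, and the distal libraries had 3, 10 and 26. In CPM that was 0.483, 3.01 and 11.4 in the primary tumours and at most 0.867 in a metastasis. Primary 1 lay among the metastases. The log2 fold change of -3.95 carried an SE of 1.23 (edgeR adjusted p = 0.117), and it was -2.43 without primary 3. Prss22 lies on chromosome 17 (23993534 to 23998100, ENSMUSG00000045027).

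Tmprss2 and Hpn, the members best known from the prostate, were not called. Tmprss2 held 123, 106 and 212 CPM in primary 1, 2 and 3, 89.5, 80.3 and 131 CPM in the proximal and 93.7, 106 and 96.4 CPM in the distal libraries. Only primary 3 stood above every metastasis (log2 fold change -0.56, SE 0.24, edgeR adjusted p = 0.202). Hpn held 74.5, 154 and 101 CPM in primary 1, 2 and 3, 99.8, 62.3 and 119 CPM in the proximal and 109, 64.9 and 59.3 CPM in the distal libraries, and only primary 2 stood above every metastasis (log2 fold change -0.36, SE 0.31, adjusted p = 0.433). Hpn is also a gene of hepatocytes, and the hepatocyte markers (8 of 9 tested) summed to 4043, 123 and 653 CPM in primary 1, 2 and 3 and to 5239 to 7575 CPM in the metastases, nearly all of it Alb. Against primary tumours, 5 of the 8 tested hepatocyte markers had a negative log2 fold change in the proximal metastases, and all 8 a positive one in the distal metastases. The part of hepatocyte RNA in the Hpn values was not tested. Tmprss2 lies on chromosome 16 (97564682 to 97611195, ENSMUSG00000000385) and Hpn on chromosome 7 (31098725 to 31115290, ENSMUSG00000001249).

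Both inhibitor genes stood lower in the metastases than in primary 2 and primary 3, and Spint2 passed the test. Spint2 (chromosome 7, 29256323 to 29281912, ENSMUSG00000074227) held 260, 1136 and 803 CPM in primary 1, 2 and 3, 216, 186 and 263 CPM in the proximal and 224, 215 and 209 CPM in the distal libraries. Spint1 (chromosome 2, 119237362 to 119249527, ENSMUSG00000027315) held 110, 360 and 235 CPM in primary 1, 2 and 3, 92.9, 76.5 and 129 CPM in the proximal and 96.6, 112 and 90.6 CPM in the distal libraries. For both genes primary 1 lay within the range of the metastases. Spint2 fell by 1.74 on the log2 scale (SE 0.37, edgeR adjusted p = 0.0455), a primary level 3.35 times the metastatic one. Spint1 stood at -1.24 (SE 0.33), with an adjusted p = 0.0766.

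The inhibitor promoters are shown because both genes ran high in the same primary tumours. RefSeq promoter windows on GRCm38.p6, 250 bases before to 50 after the start, were found for Spint1, Spint2, Tmprss2 and Hpn. Prss8, Prss22, St14, Tmprss4 and Tmprss13 were not matched. The searched motifs were AACCNGTT, bound by grainyhead factors, and CAGGTG, an E-box bound by Zeb and Snail factors, on both strands; no member window held both. Below, Spint2 is chr7:29281928-29282227 on the minus strand and Spint1 is chr2:119237110-119237409 on the plus strand, 5′ to 3′, with each E-box in capitals.
Spint2: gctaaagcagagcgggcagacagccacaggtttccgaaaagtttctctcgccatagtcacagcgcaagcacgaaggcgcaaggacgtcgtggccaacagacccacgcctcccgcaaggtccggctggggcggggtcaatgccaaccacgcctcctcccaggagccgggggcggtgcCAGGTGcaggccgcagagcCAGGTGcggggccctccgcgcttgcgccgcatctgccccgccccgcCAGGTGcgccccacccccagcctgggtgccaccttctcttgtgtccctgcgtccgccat
Spint1: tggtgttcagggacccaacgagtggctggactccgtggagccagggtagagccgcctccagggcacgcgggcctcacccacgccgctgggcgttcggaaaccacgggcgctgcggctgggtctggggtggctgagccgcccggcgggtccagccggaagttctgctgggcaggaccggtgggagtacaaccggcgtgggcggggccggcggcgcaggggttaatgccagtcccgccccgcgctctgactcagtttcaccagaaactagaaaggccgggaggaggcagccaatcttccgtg
Spint2 held 3 E-boxes, 74, 55 and 9 bases before the start, and Spint1 held none. One of the Hpn windows also held 3, so 2 of the 5 member windows had an E-box. An E-box was found in 20.2% of all 32851 promoter windows, and the grainyhead motif in 2.09% of them and in none of the 5 member windows, of which Hpn had 2 and Tmprss2, Spint1 and Spint2 had 1 each. GC made up 69.3% of the Spint2 window and 69.7% of the Spint1 window, against a median of 52.7% over all windows. A match is a string of letters and says nothing of binding.

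The calls, more than the fold changes of Prss8 and Tmprss4, moved when 1 library was left out. Prss8 lost its call without primary 3, proximal 1, proximal 3 or any distal library (edgeR adjusted p between 0.0527 and 0.0826), Tmprss4 without any library other than primary 1 or primary 2 (0.0594 to 0.108) and Spint2 without any library other than primary 1 (0.0996 to 0.170). In those fits the log2 fold change stayed between -5.84 and -5.37 for Prss8, between -2.91 and -2.12 for Tmprss4 and between -1.79 and -1.28 for Spint2. Without primary 1, 6 members were called lower (Prss8, Prss22, Tmprss4, Tmprss13, Spint1 and Spint2), where 18.6% of all tested genes were called lower. DESeq2 called the same 6 members, where it called 12.2% of genes lower, and limma-voom called none, with or without a variance for each group. At an unadjusted p below 0.05, edgeR had 7 members lower, beside 18.6% of all genes. Every metastasis lay below every primary tumour for 2 members, Prss8 and Tmprss4, and for 5.99% of all tested genes.

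**Figure D2:**
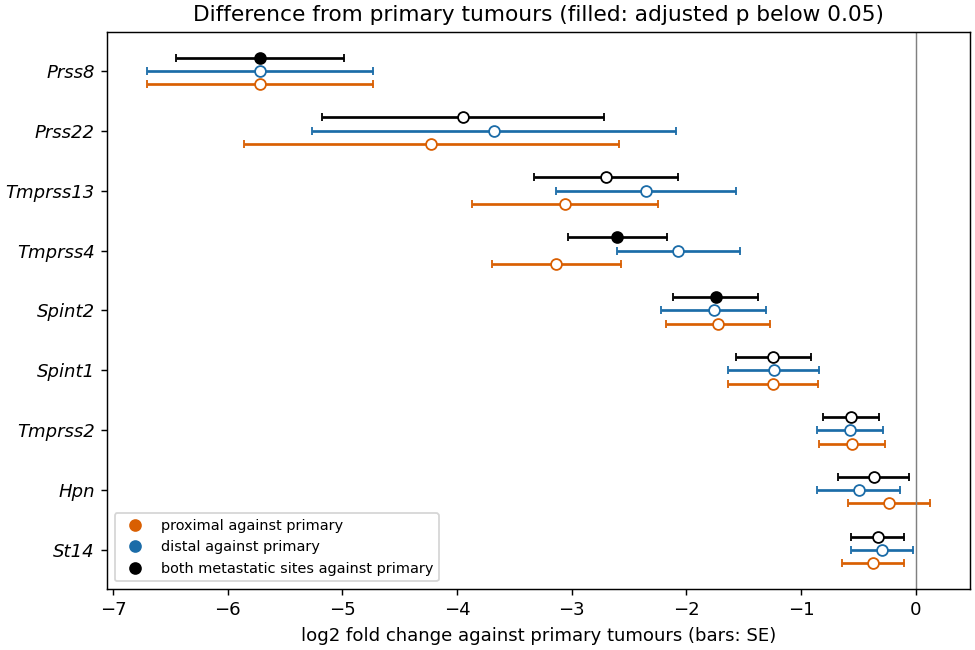
The horizontal axis is the log2 fold change against primary tumours and the bars are its SE, for proximal (orange), distal (blue) and both metastatic sites (black); filled points have an adjusted p below 0.05. The genes form 1 series from Prss8 at -5.72 to St14 at -0.33, and only Prss8, Tmprss4 and Spint2 have filled points, all in black.

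Taken separately, neither site gave a called member, and each site's values are given side by side because both use the same 3 primary libraries. In proximal metastases edgeR called 0 of 9 members (0.0494% of all tested genes were called lower), and 6 had an unadjusted p below 0.05, beside 14.3% of all genes. In distal metastases it again called 0 of 9 (0.0879% of all genes), with 6 at an unadjusted p below 0.05, beside 13.5% of all genes. DESeq2 called 5 members in the proximal metastases, beside 7.65% of all genes called lower, and 4 in the distal ones, beside 6.89%. Without primary 1, edgeR called 5 members at each site, beside 14.9% of all genes in the proximal and 14.1% in the distal comparison, and limma-voom called none at either. For Prss8 the log2 fold change was -5.72 (SE 0.99) at either site. Tmprss4 gave -3.13 (SE 0.56) at the proximal site and -2.07 (SE 0.54) at the distal one. In the same order Tmprss13 stood at -3.06 (SE 0.81) and -2.35 (SE 0.79) and Prss22 at -4.22 (SE 1.63) and -3.68 (SE 1.59). Without primary 2, Tmprss13 stood at -1.84 (proximal) and -1.14 (distal). Prss22 stood at -2.70 (proximal) and -2.15 (distal) without primary 3, at -6.90 (proximal) without proximal 2 and at -4.94 (distal) without distal 3. Spint2 stood at -1.72 (SE 0.46) and -1.76 (SE 0.46), and Spint1 at -1.24 (SE 0.40) at either site. All 3 primary tumours lay above the proximal libraries for Prss8 and Tmprss4 (10.7% of all genes) and above the distal libraries for Prss8, Tmprss4 and Spint2 (10.4% of all genes).

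Distal and proximal metastases were compared directly to ask whether the members depend on the site. No member was called by edgeR, DESeq2 or limma-voom, and in the edgeR fit of all 9 libraries none had an unadjusted p below 0.05. Among all tested genes edgeR called 0 (0%), with 49 lower and 326 higher at an unadjusted p below 0.05, while DESeq2 called 85. The largest difference was that of Tmprss4, which averaged 4.02 ± 1.12 CPM in distal and 1.92 ± 1.20 CPM in proximal metastases (SD, n = 3 each). Its log2 fold change of 1.07 had an SE of 0.53 (edgeR unadjusted p = 0.0777). The unadjusted p for Tmprss4 was 0.0151 in limma-voom with quality weights and 0.0118 in edgeR without proximal 3, where the log2 fold change was 1.71, and the adjusted p was 1 in edgeR. St14 stood at 0.08 (SE 0.27), Spint1 at 0.00 (SE 0.39) and Spint2 at -0.04 (SE 0.44) on the log2 scale, each smaller than its SE. Those SEs share a dispersion with the more variable primary libraries. In limma-voom with quality weights and a variance for each group they were 0.10, 0.20 and 0.17 in the same order. The absence of a call thus does not show that the sites are alike.

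The ratio of protease to inhibitor within a library does not depend on library scaling apart from the 0.5 CPM added to each level. The log2 ratio of St14 to Spint2 was 0.34, -0.64 and -0.80 in primary 1, 2 and 3. It was 0.88, 0.92 and 0.68 in proximal 1, 2 and 3, and between 0.81 and 1.01 in the distal libraries. All 6 metastases were above all 3 primary tumours, by 1.25 in the mean (exact two-sided permutation test, p = 0.0238, the smallest that 6 against 3 allows; adjusted p = 0.0952 over 12 ratio tests). St14 to Spint1 differed by 0.84 in the same direction, from 1.19 ± 0.34 (SD, n = 3) in primary to 2.03 ± 0.19 (SD, n = 6) in metastatic libraries (exact permutation p = 0.0238, adjusted p = 0.0952). Prss8 to Spint1 went the other way, at -4.33, -2.06 and -1.51 in primary 1, 2 and 3 and between -6.12 and -5.80 in the metastases (difference -3.34, exact permutation p = 0.0238, adjusted p = 0.0952). With Prss8 near 1 CPM in the metastases, the size of that difference depends on the CPM added: it was -3.72 with 0.1 and -2.51 with 2. It was -4.18 without primary 1 and -2.78 without primary 3. None passed after adjustment, and the exact permutation test of a single site against primary cannot go below p = 0.1. The permutations treat the libraries as independent, although the samples are said to be matched within 3 mice.

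**Figure D3:**
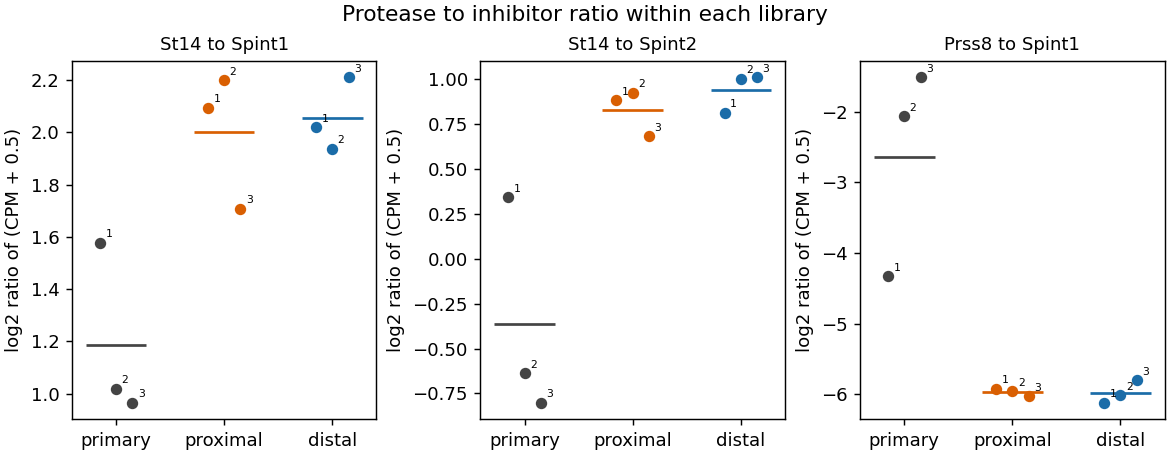
Each panel plots a log2 ratio of (CPM + 0.5) within a library, with points numbered by library and a line at the group mean. For St14 to Spint1 and St14 to Spint2 every metastasis lies above every primary tumour, for Prss8 to Spint1 every metastasis lies below, and primary 1 is the primary tumour nearest to the metastases in each panel.

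Levels between genes were compared as CPM per kilobase of exon. In primary tumours the order was Spint2 (161 CPM per kilobase), Spint1 (85.1), St14 (66.4), Prss8 (31.1), Hpn (26.8), Tmprss2 (20.1), Tmprss13 (19.4), Tmprss4 (6.52) and Prss22 (3.75), and the ranges of all neighbours overlapped. In proximal metastases St14 (51.3 CPM per kilobase) came first and Spint2 (48.7) second, with overlapping ranges, while Prss8 (0.590) was second to last. In distal metastases St14 ranged from 51.5 to 56.3 CPM per kilobase, above Spint2 at 45.9 to 49.2, which was above Spint1 at 32.7 to 40.4. Hpn (19.0) and Tmprss2 (13.5) overlapped there, Tmprss13, Tmprss4 and Prss8 followed without overlap between neighbours, and Prss8 (0.589) overlapped Prss22 (0.297).

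Of 15 substrates and partners of these proteases, all tested, 5 were called lower and none higher in the metastases against primary tumours, with a median log2 fold change of -1.36. Over all tested genes 3.68% were called lower and the median was -0.04. F2rl1, which encodes PAR2, held 10.7, 18.9 and 36.9 CPM in primary 1, 2 and 3 and 3.06 to 9.04 CPM in the metastases (-2.26, SE 0.42, edgeR adjusted p = 0.0317). Hgfac, whose product is a secreted activator of hepatocyte growth factor, fell from 10.8 ± 4.62 to 1.07 ± 0.458 CPM (SD, n = 3 and 6; adjusted p = 0.0177). The growth factor gene Hgf (-2.41, SE 0.48, adjusted p = 0.0375) and its receptor gene Met (-2.63, SE 0.51, adjusted p = 0.0364) fell as well, and Met in primary 1 (14.9 CPM) lay within the metastatic range of 9.74 to 16.7 CPM. The remaining called gene was Cdcp1, a surface glycoprotein cleaved by matriptase (-2.29, SE 0.49, adjusted p = 0.0478), named after its values were seen. Epcam, an adhesion molecule cleaved by matriptase (-0.45, SE 0.24), and Scnn1a, the alpha subunit of the sodium channel that prostasin activates (-0.79, SE 0.27), were not called and were likewise chosen after their values were seen.

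Of 17 other membrane-anchored serine proteases, 5 had enough counts to be tested and Prss21 had no count in any library. Tmprss11g, of the airway trypsin-like group, was the 1 called gene (-4.51, SE 0.92, edgeR adjusted p = 0.0417), with 0.376, 1.09 and 11.1 CPM in primary 1, 2 and 3. Tpsg1, the transmembrane tryptase gene of mast cells, pointed the other way, with 8.54, 0.234 and 0.306 CPM in primary 1, 2 and 3 and 3.37 to 16.1 CPM in the metastases (1.40, SE 1.15, adjusted p = 0.420). Of 11 other serine protease inhibitors, 6 were tested and 1 was called: Serpinb5, the maspin gene, held 6.18, 17.8 and 61.7 CPM in primary 1, 2 and 3 and 0.220 to 0.485 CPM in the proximal metastases, with each distal one also below every primary tumour (-6.35, SE 0.71, adjusted p = 0.00989). Serpinb6a, the most abundant tested gene of that list, did not pass (-0.69, SE 0.32, adjusted p = 0.222). Beside the calls in both lists, 3.68% of all tested genes were called lower.

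**Figure D4:**
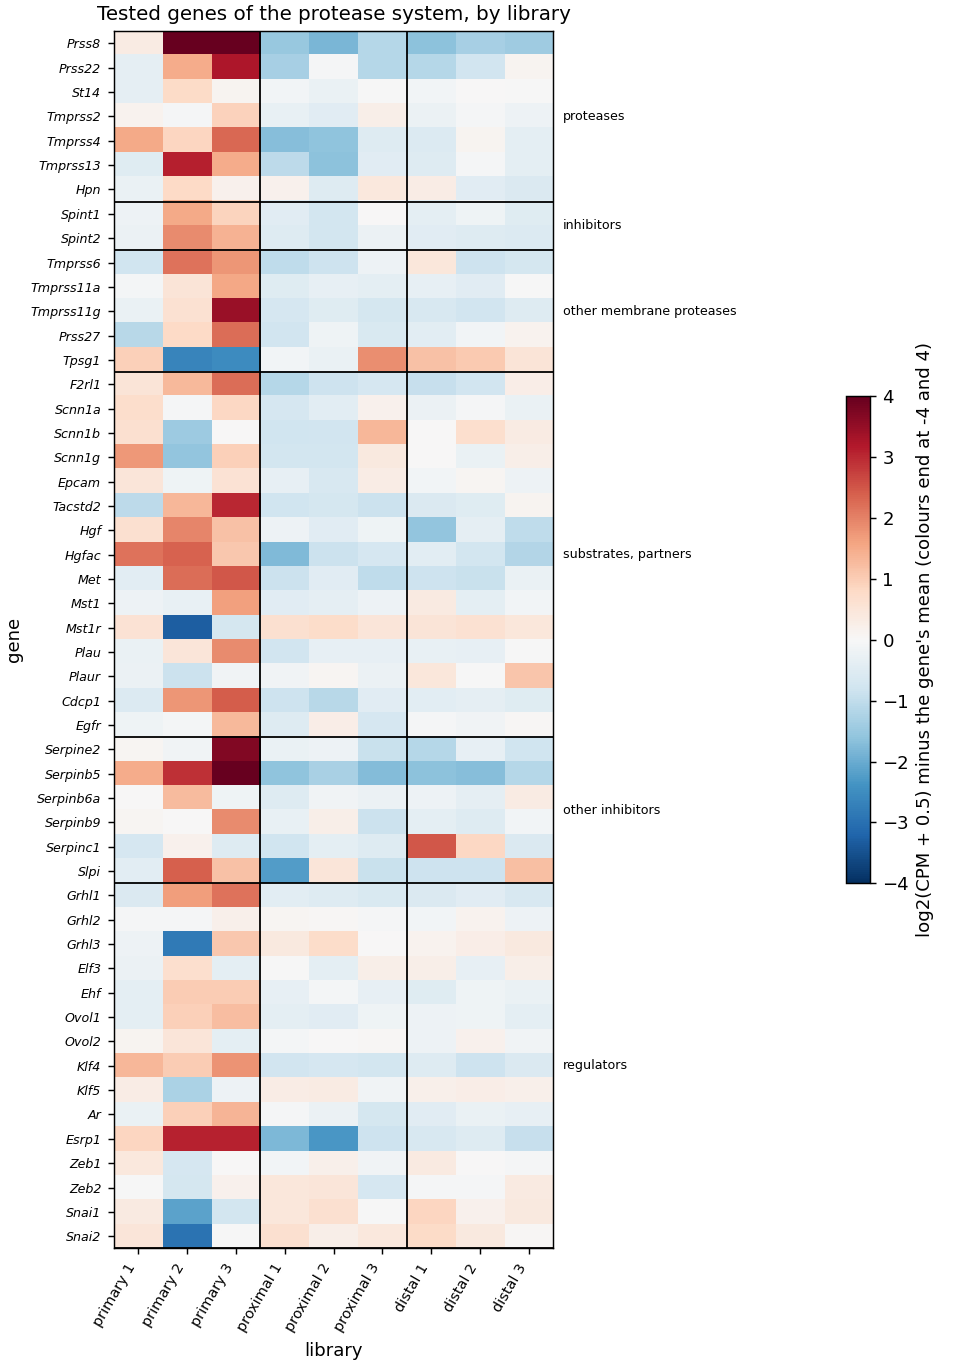
Rows are the 50 tested genes of the protease system, grouped by role; columns are the 9 libraries, and the colour is log2(CPM + 0.5) minus the gene's mean, ending at -4 and 4. Red in primary 2 and primary 3 with pale or blue metastases marks Prss8, Tmprss13, Spint2, Met and Esrp1, and more faintly Spint1. St14, Hpn, Epcam and Grhl2 are paler, with St14 and Hpn faintly red in primary 2.

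Among 15 transcription regulators of epithelial genes, all tested, 2 were called lower and none higher, beside 3.68% of all tested genes called lower. Their median log2 fold change was -0.09, with 9 negative and 6 positive. The list holds the Zeb and Snail genes Zeb1, Zeb2, Snai1 and Snai2 beside epithelial factors, so that median mixes both kinds. Klf4, a factor of epithelial differentiation, held 64.3, 51.1 and 88.0 CPM in primary 1, 2 and 3 and 13.9 to 17.5 CPM in the metastases (-2.13, SE 0.17, edgeR adjusted p = 0.00373). Esrp1, an epithelial splicing regulator, held 25.6, 121 and 122 CPM in primary 1, 2 and 3 and 2.35 to 9.50 CPM in the metastases (-3.86, SE 0.51, adjusted p = 0.0148). Grhl2, a grainyhead factor of epithelial barrier genes, named after its values were seen, stood at -0.05 (SE 0.12, adjusted p = 0.791). The other grainyhead genes of the list differed from it. Grhl1 stood at -2.07 (SE 0.46, edgeR adjusted p = 0.0514) and Grhl3 at 0.29 (SE 0.75, edgeR adjusted p = 0.801).

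Marker lists of other cell types differed in direction and are given as values, and their part in the result was not tested. With both sites pooled against primary, all tested skeletal muscle, adipocyte and mesothelium markers had positive log2 fold changes, and all macrophage markers negative ones. Single sites differed. In the proximal metastases 2 of 4 tested skeletal muscle markers were negative. In the distal ones 3 of 5 adipocyte and 2 of 4 mesothelium markers were negative. All 5 basal epithelium markers were called lower in the metastases. Their sums were 87.2, 639 and 2846 CPM in primary 1, 2 and 3 and 43.4 to 61.1 CPM in the metastases. Of the luminal markers 4 of 6 tested were called lower, and of the simple epithelium ones 2 of 8, Cldn7 and Krt19. Of the urothelial ones 2 of 6 were called lower, with 3 negative and 3 positive log2 fold changes in that list. Of the seminal vesicle ones 3 of 5 were called lower, and their sum was high in primary 3 alone (10566 CPM, at most 27.2 CPM elsewhere). Over all tested genes 3.68% were called lower. No hepatocyte, skeletal muscle, adipocyte, mesothelial, macrophage, endothelial or fibroblast marker was called in either direction.

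The genes most like each member in pattern were those with the smallest root mean square difference of centred log2(CPM + 0.5) over the 9 libraries. The nearest to Prss8 were Bnipl (0.25) and Foxq1 (0.33), to Spint1 Kdf1 (0.08) and B4galt4 (0.10), and to Spint2 Mboat1 (0.11) and Ahdc1 (0.13). Gpx2 (0.26) and Kcnk1 (0.28) were nearest to Tmprss13, Tmem30b (0.47) and Ptprr (0.47) to Tmprss4, and B2m (0.21) and Mreg (0.24) to Prss22. St14 was nearest to Mrpl57 (0.07) and Sf3b5 (0.08), Tmprss2 to Fbxo32 (0.11) and Cfap46 (0.15), and Hpn to Mt2 (0.16) and Ube2u (0.20). Mboat1 held 65.4, 230 and 161 CPM in primary 1, 2 and 3 and 44.0 to 60.7 CPM in the metastases. Among the members, Spint1 was the nearest to Spint2, at 0.25, and ranked 68 among all tested genes. Cfap46 (at most 1.39 CPM) and Ube2u (at most 0.703 CPM) were low in every library, as were Bnipl (at most 0.157 CPM) and Prss22 in the metastases. At such levels the added 0.5 CPM shrinks differences, and with them the distances. These distances are descriptions over the same 9 libraries.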

How the data were processed

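Bulk RNA was sequenced from 9 libraries of 3 groups, and the deposited files hold raw, whole-number counts per Ensembl gene. The submitters' processing notes name HTSeq 0.6.0, the aligner TopHat2 2.1.0 with Bowtie2 2.2.6.0, and the build GRCm38.p3, besides FastQC 0.11.4, DESeq2 1.14.1 and R 3.2.3. Whether counting used strand, and which annotation release, is not given in the sources used here. One further engineered allele, which the label gives for all 9 samples, is not reported here. Of 47069 gene rows, 46488 matched a symbol. Positions and exon lengths come from GENCODE M21 (GRCm38), and promoters from RefSeq (GRCm38.p6). No library repeats another (chi-square per gene of at least 23.0 for each pair).

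Counts were scaled by TMM and filtered with filterByExpr by group (minimum count 10, minimum total 15). edgeR 4.0.16 in R 4.3.3 fitted all 9 libraries with 1 mean a group (quasi-likelihood test, robust, 6 residual degrees of freedom). Benjamini-Hochberg adjustment ran over all 18204 tested genes, and a gene was called below 0.05. SE is the absolute log2 fold change over the square root of F. The fit shares 1 dispersion per gene. Yet the median SD of log2(CPM + 0.5) was 0.492 among primary libraries against 0.144 (proximal) and 0.138 (distal). P-values against primary can thus be too small, and those between distal and proximal too large. Ratios were tested by exact permutation in scipy 1.17.1. The edgeR script was checked on counts simulated with the same dispersion for all genes and libraries, so that check does not cover the wider spread of the primary libraries. Alternatives used DESeq2 1.42.0, limma 3.58.1, other scalings and filters, and each library left out.

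The members, lists and tests were chosen with earlier results of these data known. Of each list, up to 4 called genes were named, filled up to 2 by mean level.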

Additional observations from a re-analysis of the deposited data

How the results depend on the processing

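No paired analysis was possible because the labels do not say which samples came from the same mouse. For both sites against primary, 3 members and 676 genes were called. DESeq2 gave 6 and 2590, limma-voom 0 and 76, limma-voom with quality weights and a variance for each group 0 and 63, and leaving out 1 library 0 to 6 and 22 to 6618, the highest without primary 1. For proximal against primary (0 members, 9 genes), DESeq2 gave 5 and 1486, RLE factors 15 genes, limma-voom 1, quality weights 35, no low-count filter 26, no robust shrinkage 22, the compared groups alone 0, and leaving out 1 library 0 to 5 members and 0 to 5447 genes. For distal against primary (0 members, 16 genes), DESeq2 gave 4 and 1444, library totals 10 genes, limma-voom 1, quality weights 37, the compared groups alone 0, and leaving out 1 library 0 to 5 members and 0 to 5203 genes. For distal against proximal (0 and 0), DESeq2 called 85 genes and leaving out 1 library gave 0 to 38, with 0 members throughout. The cause of these moves was not tested. For both sites the compared groups are all 9 libraries, so that setting adds nothing.

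Of the members' log2 fold changes under all settings, 563 kept direction and call, 25 gained a call, 27 lost it and 23 changed sign. Signs changed between distal and proximal for Prss8 (0.019 with library totals, 0.040 with limma-voom, 0.039 with weights), Tmprss2 (0.000915, 0.011 and 0.011 in the same order) and Spint1 (-0.00504 with RLE factors, -0.00505 with DESeq2, -0.00383 without the filter). With 1 library left out, the ranges that crossed 0 there were -0.22 to 0.29 for Prss8, -0.73 to 3.24 for Prss22, -0.16 to 0.22 for Tmprss2, -0.16 to 0.23 for Spint1 and -0.15 to 0.10 for Spint2. Against primary they were -0.42 to 0.090 for Hpn (proximal), -0.50 to 0.069 for St14 (distal) and -0.54 to 0.027 for St14 (both sites). The ratio of Prss8 to Spint1 between distal and proximal was 0.00481 with a pseudocount of 0.1 and -0.10 to 0.058 with 1 library left out, and that of St14 to Spint1 was -0.091 to 0.16. At these depths Prss22, with 0 to 28 counts in the metastases, is the least precise member.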
